A study of Mus musculus with 6 samples.

Results

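Interferon response and antigen presentation genes were examined in the hippocampus of male mice that lack the cation channel gene Trpc4. The group was chosen by name, as 42 genes of the interferon-induced programme and of the class I antigen presentation pathway. A gene counted as measured where a probe set named it and no other gene, and the probe set of the highest mean over all arrays stood for it. This gave 38 measured members among 22180 genes tested. Oas1a, Gbp2 and H2-D1 were named only by probe sets that also name a second gene, Ifi44 was named by no probe set used here, and these 4 members get no value. Class I genes, Oas genes and Ifit genes have close copies in the mouse genome, so the signals of their probe sets may hold signal of a copy.

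RNA of 3 Trpc4 knock out samples and 3 Trpc4 wild type samples was hybridised to 1 Affymetrix array each. The mice were male, 56 days old and of C57BL/6J background in both groups, and the deletion is the stated difference between them. The labels give replicate numbers but do not state that each sample is a separate animal, so part of the spread behind the p-values may be technical. The labels do not give the deleted part of the gene. All differences are log2 values, knockout minus wild type, and each fold is derived from them.

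Cells sense foreign nucleic acid through receptors such as RIG-I and MDA5 and answer with interferons. Type I interferon signals through a receptor on the cell surface to a transcription factor complex with STAT2 and IRF9, which binds the interferon-stimulated response element (ISRE) in the promoters of its target genes. These genes encode antiviral proteins, while interferon gamma in particular raises the immunoproteasome, the peptide transporter TAP and class I molecules, which display peptides to T cells. In healthy brain this programme is kept low, microglia and vascular cells are among the cells that induce it, and class I molecules are also known from neurons.

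A promoter feature of the members was read from sequence. Most members were chosen as interferon-induced genes, and the ISRE is an element of such genes. A higher share among members is therefore not independent of the choice and is given as description. Letters of the ISRE core, GAAANNGAA on either strand and overlaps allowed, stood in the RefSeq promoter window (250 bases before to 50 after a start, GRCm38.p6) of 14 of 29 members with an entry, 48.3%. The share over all 27025 genes with an entry was 9.76%. With a core 1 base longer, an A added at its 3′ end, these shares were 44.8% of the members and 3.99% of all genes. That longer core was searched first, and the shorter one was adopted with its outcome known. The interferon gamma element TTCNNNGAA stood in 5 of the 29, 17.2%, against 9.55% over all genes. For the other 9 measured members the table had no entry. The windows below are shown because they span the pathway from sensor to class I molecule. Each is read in the direction of its gene, with the matching letters nearest to the start in capitals, which appear as TTCNNTTTC where the match lies on the opposite strand.
Ifih1 (chr2:62646206-62646233, minus strand): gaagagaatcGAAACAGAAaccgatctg
Ddx58 (chr4:40239804-40239832, minus strand): ctgaggcagtTTCGATTTCctatggccag
Stat2 (chr10:128270267-128270295, plus strand): gcaccctggtTTCAGTTTCctttccctag
Isg15 (chr4:156200866-156200894, minus strand): aaaggaaaccGAAACAGAAaatagctctg
Ifit1 (chr19:34640795-34640823, plus strand): cagtctcagtTTCAGTTTCtcactgctga
Ifit3 (chr19:34583417-34583445, plus strand): tactttcctcTTCCCTTTCacaaacactg
Oas3 (chr5:120777710-120777738, minus strand): aggagaaaacGAAAGTGAAgggaggtgac
Cxcl10 (chr5:92349084-92349112, minus strand): tcacgctttgGAAAGTGAAacttacctca
B2m (chr2:122147538-122147566, plus strand): ataagaacatGAAACTGAAaatgggaaag
The match began 84 bases before the start in Ifit1, 102 bases before it in Ifit3, 139 bases before it in B2m and 221 bases before it in Stat2. In Ddx58 and Ifih1 it lay 3 and 32 bases after the start. A match is a description of letters and not a measured binding site. A window without a match does not show that the gene lacks the element, since only these letters in these windows were searched.

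The targeted gene was checked first. Trpc4 had signals of 7.39, 7.55 and 7.31 in the knockout arrays, against 8.06, 8.23 and 8.06 in the wild-type arrays, a difference of -0.70 ± 0.09 (standard error). Its adjusted limma p over all genes was 0.738. The array medians lay between 4.73 and 4.75, and any pair of arrays correlated at 0.985 to 0.988 (Pearson, across probe sets). All 10 measured hippocampal neuron markers had signals above the median of all probe sets.

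Most of the interferon genes gave dim signals, while much of the antigen presentation machinery did not. The median over all probe sets of the mean signal was 4.72 on the log2 scale, and 23 of the 38 members (60.5%) had a mean below it, against 41.5% of all genes tested. Of the 30 interferon response members, 21 lay below. Among them were the sensors Ifih1 and Dhx58, the ubiquitin ligase gene Trim25, the factors Irf1 and Irf7, and Isg15, Usp18, Ifit1, Ifit2, Mx1, Mx2, Gbp3, Rsad2, Bst2, Trim30a, Parp14 and Cxcl10. All 4 measured OAS genes, Oas2, Oas3, Oasl1 and Oasl2, lay below as well. Of the 8 antigen presentation members, Psmb9 and Tap2 lay below and the other 6 above. Psmb8 was only just above, with a mean of 4.726 against a median of 4.721. In wild type alone 22 members had a mean below that median, the exception being Ifih1, which averaged 4.48 ± 0.17 in knockout and 4.74 ± 0.29 in wild type (SD, n = 3 each). A signal depends on the probes as well as on the transcript, and the deposited values carry no measure of background, so a dim signal does not show that a transcript is absent.

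No member passed the adjusted threshold in knockout hippocampus. By limma with Benjamini-Hochberg adjustment over all 22180 genes, 0 of the 38 members and 0 of all genes (0.0%) had an adjusted p under 0.05, and the lowest adjusted p of a member was 0.849. An unadjusted p under 0.05 was found for 6 members, 15.8%, against 5.75% of all genes. Of these, 2 were higher in knockout, where all genes gave 3.16%, and 4 were lower, where all genes gave 2.59%. At an unadjusted p under 0.01 there was 1 member, Psmb9, where all genes gave 1.12%. At an unadjusted p under 0.05, members above the median of all probe sets gave 1 of 15 (6.67%), against 4.66% of all genes there. Members below it gave 5 of 23 (21.7%), against 7.29% of all genes there. The genotypes did not overlap for 8 members, 21.1%, against 10.9% of all genes. Usp18, Bst2, Lgals3bp and Psmb9 were the 4 that lay higher (6.41% of all genes), and Ifit2, Mx2, Rtp4 and Parp14 the 4 that lay lower (4.45%). Members were chosen with earlier results of these data known, so no test of the group was made from these shares.

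**Figure D1:**
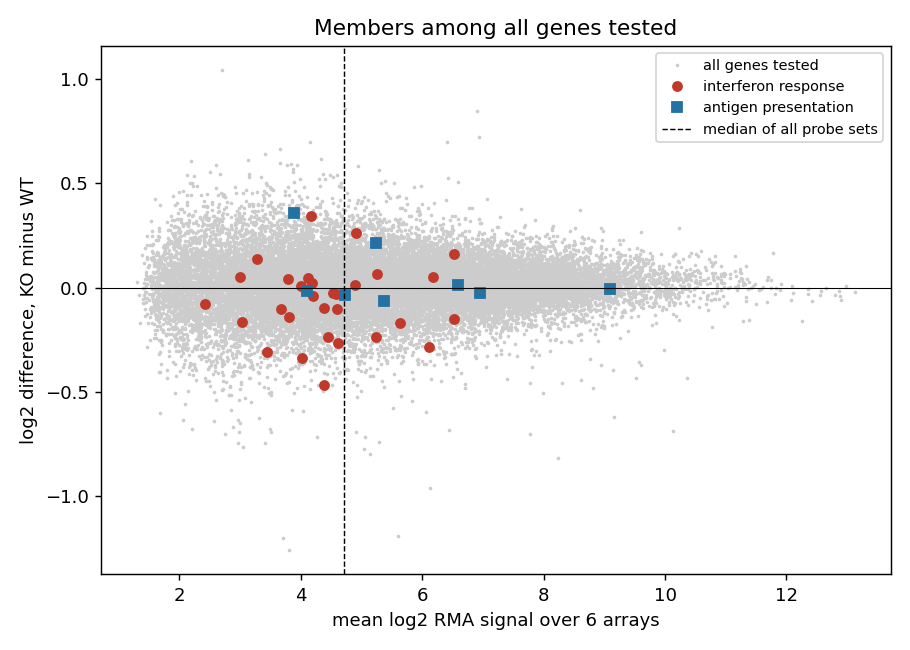
Log2 difference, knockout (KO) minus wild type (WT), against the mean log2 signal over 6 arrays for each of the 22180 genes tested (grey) and for the interferon response (circles) and antigen presentation members (squares). The dashed line is the median of all probe sets, 4.72. The members lie inside the cloud of all genes, between -0.47 and 0.36, and 23 of 38 lie left of the line.

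The differences of the members were small and went both ways. In knockout 15 of the 38 were higher and 23 lower. Their median was -0.03, with a lower quartile of -0.15 and an upper quartile of 0.05. Over all genes 12186 were higher and 9994 lower, the median was 0.01 and the quartiles were -0.07 and 0.09. The members ranged from -0.47 for Oasl2 to 0.36 for Psmb9. Their 95% confidence intervals, from the limma fit, lay within a 2-fold change in either direction for all 38 members and within a 1.5-fold change for 30. Over all genes, 22069 of 22180 had intervals within a 2-fold change and 20339 within a 1.5-fold change. These intervals bound array signal and not the amount of transcript. The precision rests on 3 arrays a group, and the standard error of a member was 0.11 in the median and 0.07 to 0.24 in range, against a median of 0.10 over all genes.

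**Figure D2:**
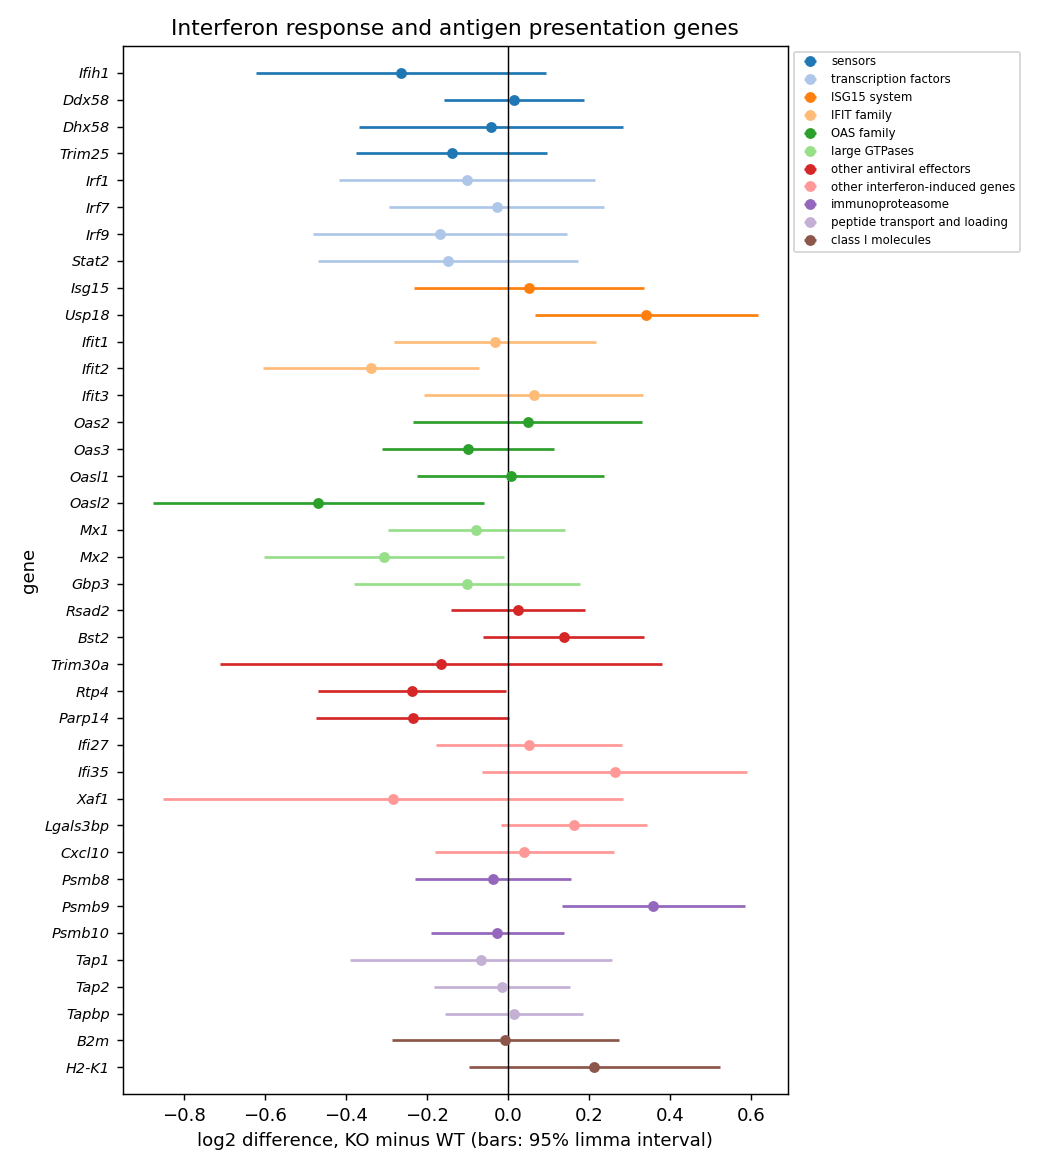
Log2 difference, knockout (KO) minus wild type (WT), of the 38 measured members, coloured by role, with 95% confidence intervals from limma as bars. Intervals of 6 members leave out 0, and all 38 stay within 1 log2 unit of 0.

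Among 4 genes of viral RNA sensing, 3 were lower in knockout and none had an unadjusted p under 0.05. Ddx58, which encodes RIG-I, had signals of 4.89, 4.85 and 4.98 in the knockout arrays, against 4.93, 4.85 and 4.89 in the wild-type arrays. The groups overlapped, with a difference of 0.01 and a 95% interval of -0.16 to 0.19. Ifih1, which encodes MDA5, had 4.29, 4.55 and 4.60 in knockout, against 4.58, 4.58 and 5.07 in wild type. Wild-type replicate 3 was the high array here, and the difference of -0.26 ± 0.15 (standard error) became -0.10 without it. Dhx58, whose product LGP2 modulates both sensors, differed by -0.04 ± 0.14, and Trim25, a ubiquitin ligase known to act on RIG-I, by -0.14 ± 0.10.

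The interferon-linked transcription factors were lower in knockout for 4 of 4 genes, between -0.17 and -0.03, and none had an unadjusted p under 0.05. Stat2, a subunit of the complex that binds the ISRE, had signals of 6.62, 6.37 and 6.36 in knockout, against 6.72, 6.32 and 6.76 in wild type. Its groups overlapped, since wild-type replicate 2 was the lowest of the 6 arrays, and the difference was -0.15 (95% interval -0.47 to 0.17). It lay between -0.29 without wild-type replicate 2 and -0.07 without wild-type replicate 3. Irf9, its DNA-binding partner, had 5.63, 5.33 and 5.70 in knockout, against 5.49, 5.84 and 5.84 in wild type. The difference of -0.17 ± 0.13 became -0.28 without wild-type replicate 1 and -0.06 without knockout replicate 2. Irf1, a factor induced by interferon gamma, differed by -0.10 and Irf7, which drives type I interferon genes, by -0.03.

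Isg15 and Usp18 form a pair of tag and eraser, since ISG15 is a ubiquitin-like protein and USP18 removes it and also dampens the type I interferon receptor. Usp18 had signals of 4.16, 4.35 and 4.53 in knockout, against 3.87, 3.99 and 4.15 in wild type. The groups met without overlapping, with the lowest knockout array just above the highest wild-type array. The difference was 0.34 (95% interval 0.07 to 0.62), a fold of 1.27, and its limma p was 0.0217 unadjusted and 0.853 adjusted. Isg15 differed by 0.05 ± 0.12 (standard error), with 3.03 ± 0.24 in knockout and 2.98 ± 0.06 in wild type (SD, n = 3 each).

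The IFIT genes, a family that includes binders of viral RNA without the marks of host caps, were lower in knockout for 2 of 3. Ifit2 was the one with an unadjusted p under 0.05. Ifit2 had signals of 3.76, 3.84 and 3.93 in knockout, against 4.42, 4.02 and 4.11 in wild type. Every knockout array lay below every wild-type array, and wild-type replicate 1 stood apart at the top. The difference was -0.34 (95% interval -0.61 to -0.07), a fold of 0.790, and its limma p was 0.0191 unadjusted and 0.849 adjusted. It was -0.22 without wild-type replicate 1. Ifit3 had 5.39, 5.03 and 5.43 in knockout, against 5.19, 5.24 and 5.23 in wild type, so that the knockout arrays lay on both sides of the narrow wild-type range. Ifit1 differed by -0.03 ± 0.11 and Ifit3 by 0.06 ± 0.12 (standard error), and these 3 genes are neighbours of the same cluster on chromosome 19.

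In the OAS family, which includes enzymes that turn double-stranded RNA into a signal for RNase L, Oasl2 had the largest difference of all members. It had signals of 3.99, 4.06 and 4.41 in knockout, against 4.36, 4.97 and 4.54 in wild type. Knockout replicate 3 lay above wild-type replicate 1, so the groups overlapped. The difference was -0.47 (95% interval -0.88 to -0.06), a fold of 0.723, and its limma p was 0.0299 unadjusted and 0.853 adjusted. It was -0.30 without wild-type replicate 2, the highest array. Oas2, Oas3 and Oasl1 differed by 0.05, -0.10 and 0.0058.

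The large GTPases were lower in knockout for 3 of 3 genes. Mx2 had signals of 3.39, 3.01 and 3.48 in knockout, against 3.53, 3.67 and 3.60 in wild type. No knockout array reached a wild-type array, and knockout replicate 2 was the lowest by a wide margin. The difference was -0.31 (95% interval -0.60 to -0.01), a fold of 0.808, and its limma p was 0.0442 unadjusted and 0.853 adjusted. It was -0.17 without knockout replicate 2. Mx1, the antiviral GTPase that is disrupted in many inbred mouse strains, differed by -0.08. Gbp3, a guanylate-binding protein of the interferon gamma response, had 3.47, 3.53 and 3.88 in knockout, against 3.70, 3.66 and 3.83 in wild type. Its groups overlapped, with a difference of -0.10 that became -0.23 without knockout replicate 3 and -0.02 without knockout replicate 1. Gbp3 is the measured member on chromosome 3, which also carries Trpc4.

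Of the other antiviral effectors, Rtp4, a receptor chaperone induced by interferon, was the one above the median of all probe sets. It had signals of 5.29, 4.94 and 5.12 in knockout, against 5.39, 5.33 and 5.35 in wild type. The knockout arrays lay below a tight wild-type group, and knockout replicate 2 was the lowest. The difference was -0.24 (95% interval -0.47 to -0.0070), a fold of 0.848, and its limma p was 0.0449 unadjusted and 0.853 adjusted. It was -0.15 without knockout replicate 2. Parp14, an ADP-ribosyltransferase, differed by -0.24 ± 0.10 (standard error), with 4.34 ± 0.18 in knockout and 4.57 ± 0.03 in wild type (SD, n = 3 each). Bst2, which encodes tetherin, differed by 0.14 and Rsad2, which encodes viperin, by 0.02. Trim30a, a tripartite motif gene, differed by -0.17 with a standard error of 0.23, since wild-type replicate 1 had 2.51 where the other wild-type arrays had 3.42 and 3.40.

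The remaining interferon-induced genes were higher in knockout for 4 of 5. Lgals3bp, a secreted glycoprotein that binds galectins, had signals of 6.62, 6.56 and 6.64 in knockout, against 6.43, 6.38 and 6.54 in wild type. The knockout arrays lay above the wild-type arrays by a narrow margin, with a difference of 0.16 (95% interval -0.02 to 0.34) and an unadjusted limma p of 0.0720. A second probe set of Lgals3bp differed by 0.01 ± 0.10 (standard error). Ifi35 differed by 0.26 ± 0.14 and by 0.04 ± 0.12 with its second probe set. Ifi27 differed by 0.05 and the chemokine gene Cxcl10 by 0.04. Xaf1, which encodes a binding partner of the apoptosis inhibitor XIAP, had the widest spread of all members, at 5.48, 5.93 and 6.49 in knockout, against 6.46, 6.31 and 5.99 in wild type.

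**Figure D3:**
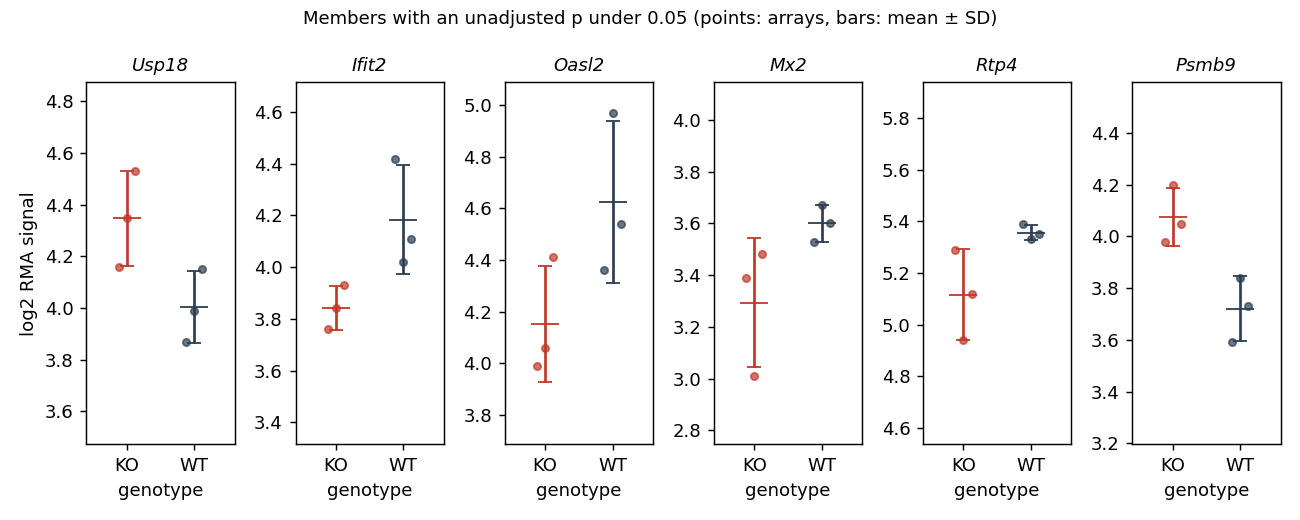
Log2 signal of each array in knockout (KO) and wild type (WT) for the 6 members with an unadjusted p under 0.05, with the mean and SD of each group. Each panel spans 1.4 log2 units. Usp18 and Psmb9 were higher in knockout, Ifit2, Oasl2, Mx2 and Rtp4 lower, and the groups of Oasl2 overlap.

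The immunoproteasome subunits replace the catalytic subunits of the constitutive proteasome in cells exposed to interferon, and only Psmb9 of the 3 had an unadjusted p under 0.05. Psmb9 had signals of 3.98, 4.20 and 4.05 in knockout, against 3.59, 3.84 and 3.73 in wild type. Every knockout array lay above every wild-type array. The difference was 0.36 (95% interval 0.13 to 0.58), a fold of 1.28, and its limma p was 0.00679 unadjusted and 0.849 adjusted. It lay between 0.29 and 0.42 when single arrays were left out, each time with an unadjusted p under 0.05. Psmb10 had 6.92, 6.99 and 6.90 in knockout, against 6.98, 6.98 and 6.94 in wild type, the tightest values of all members, and a difference of -0.03 (95% interval -0.19 to 0.14). Psmb8 differed by -0.04 ± 0.08 (standard error).

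Psmb9 and the transporter gene Tap1 are read in opposite directions from starts that lie 225 bases apart, and the stretch between them is shown because both genes share it. It runs on chromosome 17 at chr17:34187331-34187555 (GRCm38.p6) and is printed on the minus strand, the direction of Psmb9. The capitals mark the letters of a GC box, GGGCGG on either strand, which 35.7% of all promoter windows hold.
Psmb9 to Tap1: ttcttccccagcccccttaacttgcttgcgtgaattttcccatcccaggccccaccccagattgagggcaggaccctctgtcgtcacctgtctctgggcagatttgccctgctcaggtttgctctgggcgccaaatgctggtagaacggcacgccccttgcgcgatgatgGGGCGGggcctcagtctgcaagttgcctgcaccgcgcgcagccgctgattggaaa
This stretch held 1 GC box and 0 matches to either interferon element as searched above. Tap1 had signals of 5.12, 5.65 and 5.23 in knockout, against 5.33, 5.40 and 5.48 in wild type, with the highest array and the lowest array both among the knockouts. Its difference was -0.07 (95% interval -0.39 to 0.26), and it was -0.23 without knockout replicate 2 and 0.04 without knockout replicate 1. Whether the differences of Psmb9 and Tap1 differ from each other was not tested.

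The other genes of peptide loading and the class I molecules overlapped between genotypes by the probe sets that stand for them. Tapbp, which encodes the tapasin bridge between TAP and class I, had signals of 6.54, 6.62 and 6.62 in knockout, against 6.58, 6.53 and 6.63 in wild type. Its difference was 0.01 (95% interval -0.16 to 0.18). A second, dimmer probe set of Tapbp had 5.22, 5.32 and 5.12 in knockout, against 5.09, 4.75 and 5.06 in wild type. Those groups did not overlap, with a difference of 0.26 ± 0.11 (standard error) and an unadjusted limma p of 0.0541. Tap2, which encodes the partner chain of TAP1, differed by -0.02 ± 0.07. B2m, the light chain of every class I molecule, had 8.94, 9.20 and 9.15 in knockout, against 8.97, 9.02 and 9.32 in wild type. The arrays interleaved, with a difference of -0.0076 (95% interval -0.29 to 0.27). H2-K1, a classical class I heavy chain, had 5.14, 5.27 and 5.64 in knockout, against 5.03, 5.20 and 5.19 in wild type. Knockout replicate 3 was the high array, and the difference of 0.21 ± 0.13 became 0.07 without it.

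Members with and without ISRE letters are given side by side, and the difference between them was not tested. Of the 14 with the letters, 6 were higher and 8 lower in knockout, with a median difference of -0.02 and a range of -0.26 to 0.14. None of the 14 had an unadjusted limma p under 0.05. Of the 15 with a window but without the letters, 6 were higher and 9 lower. Their median was -0.03, with a range of -0.47 to 0.36, and 3 had such a p. Of the 9 without an entry, 3 were higher and 6 lower, and Usp18, Mx2 and Rtp4 had such a p. Over all genes the share with such a p was 5.75%.

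The arrays were compared through a score, the mean over the 38 members of the deviation of an array from the mean of the gene. It was -0.07, -0.05 and 0.05 in knockout replicates 1 to 3, against -0.0050, 0.03 and 0.04 in wild-type replicates 1 to 3. The groups overlapped, because knockout replicate 3 had the highest score of the 6 arrays. It held the highest value for 13 of the 38 members, while knockout replicate 1 held the highest for 0 and the lowest for 11. The interferon response members alone gave -0.06, -0.09 and 0.05 in knockout, against 0.01, 0.05 and 0.04 in wild type. The antigen presentation members gave -0.08, 0.09 and 0.07 in knockout, against -0.08, -0.03 and 0.03 in wild type. Between replicates of a genotype the SD of a member was 0.156 in the median, against 0.125 over all genes.

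**Figure D4:**
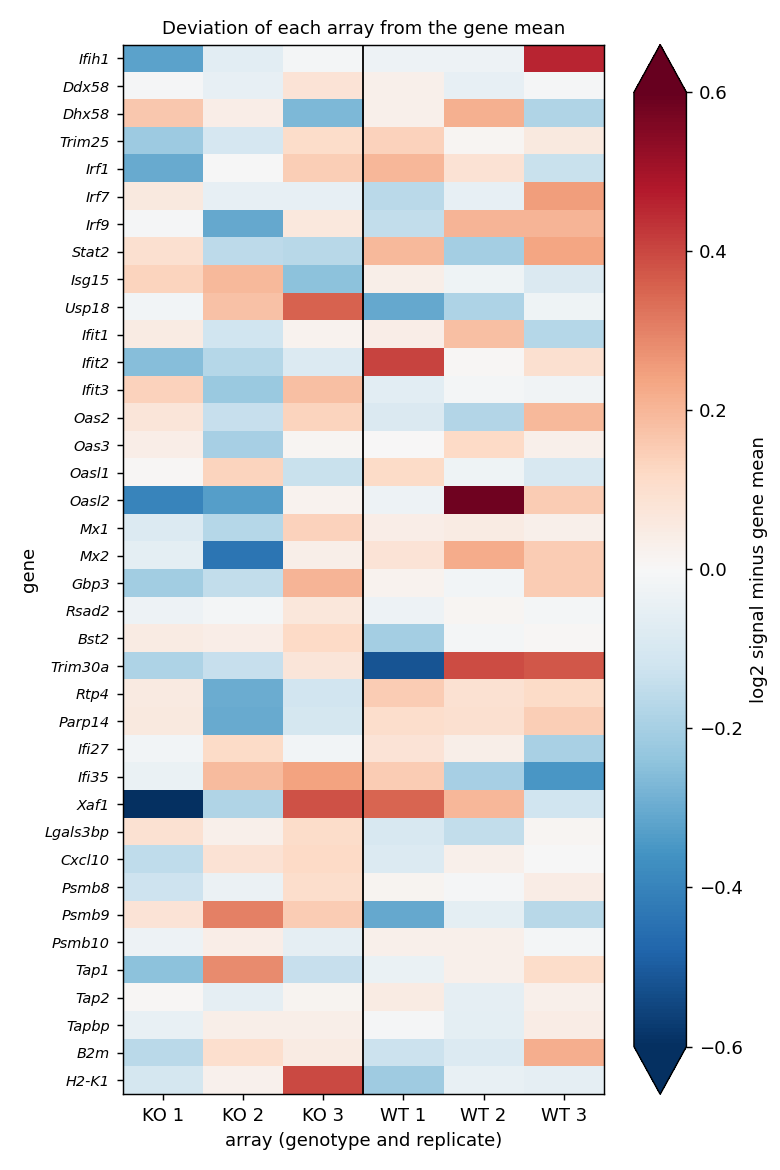
Deviation of each array from the mean of the gene, on the log2 scale, for the 38 members (rows) in 3 knockout (KO) and 3 wild-type (WT) arrays (columns). Red is above and blue below the mean of the gene. Single arrays stand out for single genes, such as wild-type replicate 2 for Oasl2 and knockout replicate 1 for Xaf1.

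Of the lists of cell type markers, myelin differed most between the genotypes, and most vascular and choroid plexus markers were also lower in knockout. The 11 measured microglia markers scored 0.07, -0.04 and 0.03 in knockout, against -0.01, -0.02 and -0.02 in wild type, and 6 of 11 were higher. The 10 endothelial markers scored -0.10, -0.0085 and -0.03 in knockout, against 0.09, -0.10 and 0.15 in wild type, and 8 of 10 were lower. Of the 10, 1 had an unadjusted limma p under 0.05, Abcb1a, with no overlap. The 9 mural cell and fibroblast markers scored -0.03, -0.13 and -0.0041 in knockout, against -0.02, 0.13 and 0.06 in wild type. Of these 8 were lower, and Acta2 and Kcnj8 had an unadjusted p under 0.05 with no overlap. The 7 choroid plexus and ependyma markers scored -0.18, -0.16 and 0.05 in knockout, against 0.05, 0.105 and 0.14 in wild type. All 7 were lower, and Ttr, the transthyretin gene of the choroid plexus, differed by -0.43 ± 0.18 (standard error). Of 9 T, B and NK cell markers 8 were dimmer than the median probe set, and so were all 8 markers of perivascular macrophages and monocytes. The 11 oligodendrocyte and myelin markers were all lower in knockout and scored -0.21, -0.56 and 0.07 there, against 0.29, 0.17 and 0.24 in wild type. All 11 had an unadjusted limma p under 0.05, against 5.75% of all genes, and 10 did not overlap between genotypes, against 10.9% of all genes. Among the knockout arrays, replicate 3 had the highest score in both the members and myelin, while the lowest member score was in replicate 1 and the lowest myelin score in replicate 2. Among the wild-type arrays, replicate 1 had the highest myelin score and the lowest member score. The astrocyte score was -0.08, -0.07 and 0.10 in knockout, against 0.06, -0.01 and 0.0009 in wild type. The 10 hippocampal neuron markers scored 0.0093, 0.03 and -0.0049 in knockout, against 0.04, -0.02 and -0.05 in wild type. Of these 5 were higher and 5 lower, and 3 did not overlap, 30.0%, against 10.9% of all genes. Wfs1, the 1 with an unadjusted limma p under 0.05, differed by -0.25 ± 0.08 (standard error). In bulk tissue fewer cells of a type and less RNA per cell cannot be told apart, and the part of these cell types in the values of the members was not tested. None of the 4 blood cell markers had a probe set that named it alone.

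**Figure D5:**
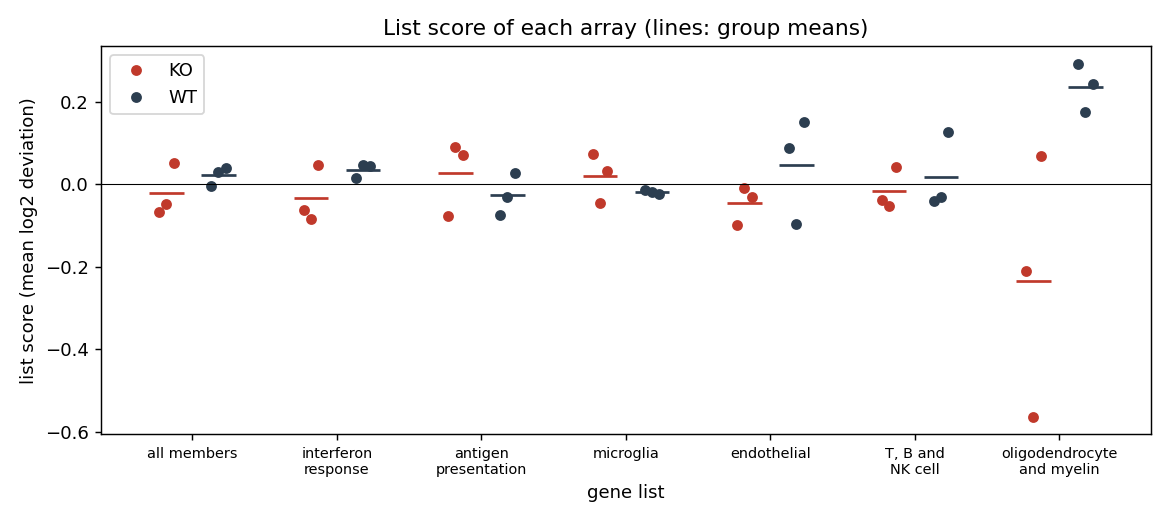
Score of each array, the mean log2 deviation from the gene means, for all 38 members, their interferon response and antigen presentation parts, and 4 marker lists in knockout (KO, left of each pair) and wild type (WT). Points are arrays and lines are group means. The member scores lie between -0.09 and 0.09 and overlap between genotypes, while the myelin scores reach from -0.56 to 0.29.

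Genes around the members in the same pathways were read from 6 further lists with 81 measured genes. Of these, 0 passed over all genes and 7 had an unadjusted p under 0.05, 8.64%, against 5.75% of all genes. Of the 7, 4 were higher and 3 lower in knockout, and the median difference was 0.0059. Among 14 interferon receptor and JAK-STAT genes, 9 were higher, and 1 had such a p. This was Ifnlr1, a dim receptor chain gene for interferon lambda, at 0.27 ± 0.09 (standard error). None of the 14 genes of nucleic acid sensing had an unadjusted p under 0.05, and 7 were higher and 7 lower. Of 23 further interferon-stimulated genes 14 were higher. They included the immunity-related GTPase gene Iigp1, a dim gene with a mean of 3.88, below the median of all probe sets. Iigp1 had signals of 4.19, 3.97 and 4.33 in knockout, against 3.55, 3.79 and 3.46 in wild type. Its groups did not overlap, and the difference of 0.57 ± 0.12 had a limma p of 0.00211 unadjusted and 0.849 adjusted. Isg20, an exonuclease gene, differed by 0.42 ± 0.12.

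Accessory and related genes of the class I pathway were lower for 9 of 14, and the chaperone gene Calr differed by -0.21 ± 0.09 (standard error). In the class II pathway 6 of 9 genes were higher. The cathepsin gene Ctss, which is active in microglia, differed by -0.29 ± 0.09 and the dim class II gene H2-Aa by 0.25 ± 0.09. Of the 7 constitutive beta subunit genes of the proteasome, 5 were lower, from -0.29 for Psmb3 upward, and the list ranged up to 0.08.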

How the data were processed

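Per the labels' protocols, total RNA of hippocampus was extracted with Trizol and sense cDNA was labelled with biotin for Affymetrix arrays. The deposited values are on the log2 scale, 1 column for each of 6 arrays. The submitters' processing notes name RMA and Affymetrix Power Tools. Versions and build are not stated there. RMA equalises arrays and so would hide a shift common to most genes, and no raw scans were used.

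Names came from GEO's platform annotation, which may hold outdated symbols. It gave 1 gene for 23521 of 41345 probe sets, several for 1814 and none for 16010. No filter on low values was applied, and all 38 measured members entered the fit. Knockout was set against wild type by lmFit and eBayes of limma 3.58.1 (R 4.3.3) on 22180 genes, with no term but genotype. Benjamini-Hochberg adjustment ran over all genes, with a threshold of 0.05. Counts at an unadjusted p under 0.05 do not control false discoveries. The fit was tested on simulated data of the 22180 genes, where 42 of 50 genes changed by 1 log2 unit were called, 20 of 50 changed by 0.5, and 7 of 21980 unchanged ones. The simulation held 200 changed genes, which makes the threshold easier to reach than in data with few changes. Promoter sequences come from RefSeq (GRCm38.p6), matched by symbol for 29 of 38 members.

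The members and lists were chosen with earlier results of these data known. Array values are printed for the brightest member and the member of smallest p in each role, and for every member with an unadjusted p under 0.05. Those of Xaf1, of Trim30a in wild type and of Iigp1 were added after they were seen. Those of Trpc4 and of the second Tapbp probe set are also printed outside this rule. Of the further and marker lists at most 3 genes of smallest p are named. The settings tried besides were a replicate block, quantile normalization, median centring, trend and robust variance, array weights, genes above the median only, the mean of a gene's probe sets, leaving out each array, and a stricter unadjusted threshold. A longer ISRE core was the first one searched and is given as an alternative chosen after seeing the data. Figures were drawn with matplotlib 3.10.9.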

Additional observations from a re-analysis of the deposited data

How the results depend on the processing

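The count of 0 members past the adjusted threshold held under all alternatives run, with a lowest adjusted p of 0.705 for a member (genes above the median only) and 0.752 to 0.985 without single arrays. Over all genes the count of 0 became 1 with trend and robust variance (Trpc4) and was 0 to 1 without single arrays. The 6 members at an unadjusted p under 0.05 became 2 where only genes above the median of all probe sets were tested, with 15 members and 6.94% of all genes there at such a p. These were Rtp4, which is among the 6, and Lgals3bp, which is not. There was 1 at an unadjusted p under 0.01. At an unadjusted p under 0.05 there were 3 to 7 without single arrays, with 3 without wild-type replicate 2. With a replicate block there were 5, all among the 6. The replicate numbers are not known to pair samples. Same-numbered samples deviated from their group means with correlations of 0.07, 0.03 and -0.0038 across genes, and knockout replicate 3 did not correlate best with its own number. Psmb9 kept such a p in all 6 fits without single arrays, Ifit2 in 5, Usp18 and Oasl2 in 3, Mx2 and Rtp4 in 1. Membership changed as well: of the 3 to 7 members in each such fit, 2 to 4 were among the 6, and Parp14, H2-K1, Tap1, Trim25, Gbp3, Xaf1, Trim30a, Ifi35, Stat2 and Lgals3bp had such a p in 1 fit each. The median difference of the members lay between -0.04 and -0.0095 without single arrays. Some named values near 0 changed sign without single arrays, and the cause was not tested. Ddx58 lay between -0.0226 and 0.0414 (negative without knockout replicate 3 or, at -0.0063, wild-type replicate 2), Ifit3 between -0.0118 (without knockout replicate 3) and 0.1919, Tap1 between -0.2254 and 0.0385 (without knockout replicate 1), and Tapbp between -0.0116 (without wild-type replicate 2) and 0.0407, with -0.0006 without knockout replicate 2. B2m lay between -0.0734 and 0.102 (without wild-type replicate 3), with 0.0732 without knockout replicate 1. Of the 38 members, 21 kept their sign in all 6 fits without single arrays. With quantile normalization 24 members were lower in place of 23, the difference being in the OAS family.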
